A study of Rattus norvegicus with 11 samples.

Results

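Grb14, Plekhf1, Klhl40, Kyat3 and Hcar2 are 5 genes whose transcripts were lower in adrenal lesions of Cdkn1b-mutant rats than in normal adrenal glands. They were chosen by that difference, from the probe sets called lower in lesions, so their fall is a property of the choice and not a finding. They are 5 of 14506 genes named by a probe set that carries a single gene symbol, and each of the 5 was measured by 1 such probe set. The study hybridised total RNA of 11 rat adrenal samples, 1 sample per single-colour array. The lesions came from 7 rats heterozygous for a mutation of p27Kip1 (Cdknb1 in the labels, the gene now written Cdkn1b), which encodes an inhibitor of cyclin-dependent kinases. The normal glands came from 4 wild-type rats. Every lesion was from a mutant rat and every normal gland from a wild-type rat, so lesion and genotype cannot be told apart here. The rats with lesions were 21 to 23 months (3 animals) or 13 months old (4 animals), and the wild-type rats 24 months (2 animals) or 12 months (2 animals). Of the lesions 4 were from males and 3 from females, and of the normal glands 2 and 2. All animals had the background Sprague–Dawley white eye/Wistar–Kyoto, were kept specific-pathogen-free and received no treatment. Each level is the log2 value of a probe set that the authors obtained by RMA, which corrects background, equalises the arrays and summarises the probes.

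The 5 proteins belong to unrelated pathways. Grb14 is an adaptor that binds the activated insulin receptor and inhibits its kinase. Plekhf1 carries a PH domain and a FYVE domain, binds phosphoinositides on endosomes and lysosomes and has been tied to cell death. Klhl40 is a kelch-repeat protein best known from skeletal muscle, where it stabilises proteins of the thin filament. Kyat3 is a kynurenine aminotransferase, an enzyme that turns kynurenine, a breakdown product of tryptophan, into kynurenic acid. Hcar2 is a receptor for the ketone body β-hydroxybutyrate and for niacin that couples to inhibitory G proteins and restrains lipolysis in adipocytes.

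The sequence before the transcription start was examined because the same comparison also called immediate early genes, many of which are known to carry cyclic AMP response elements (CRE) or AP-1 sites. RefSeq (build GRCr8) gave such a sequence for 4 of the 5 genes, and the 250 bases before the start were searched on both strands. The 3 sequences with a match to the CRE (TGACGTCA), its core (TGACG, which lies inside the full element on both strands) or the AP-1 element (TGANTCA) are shown 5′ to 3′ on the gene's strand, with these matches in capitals. They lie at chr1:100046818-100047067 (minus strand), chr8:130318543-130318792 (plus strand) and chr3:70091922-70092171 (minus strand).
Plekhf1: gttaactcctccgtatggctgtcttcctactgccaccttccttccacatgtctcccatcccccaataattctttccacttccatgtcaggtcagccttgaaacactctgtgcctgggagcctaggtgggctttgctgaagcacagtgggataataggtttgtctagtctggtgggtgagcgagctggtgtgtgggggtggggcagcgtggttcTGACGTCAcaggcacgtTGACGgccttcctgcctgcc
Klhl40: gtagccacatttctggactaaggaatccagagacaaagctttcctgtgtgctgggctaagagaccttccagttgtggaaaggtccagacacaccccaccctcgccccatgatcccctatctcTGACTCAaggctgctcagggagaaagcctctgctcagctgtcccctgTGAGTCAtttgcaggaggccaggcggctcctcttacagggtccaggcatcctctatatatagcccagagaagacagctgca
Grb14: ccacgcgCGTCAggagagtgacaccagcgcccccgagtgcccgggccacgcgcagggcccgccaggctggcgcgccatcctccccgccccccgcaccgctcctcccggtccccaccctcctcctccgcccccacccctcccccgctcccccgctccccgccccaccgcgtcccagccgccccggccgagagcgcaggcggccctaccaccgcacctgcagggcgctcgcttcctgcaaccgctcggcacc

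Plekhf1 held the full CRE from position -37 to -30 before the start, and a further copy of the core from -20 to -16. The full element was found in 1.59% of the 33469 promoters of the table and the core in 18.2%. Here and below these promoters were not restricted to genes named by a probe set. Klhl40 held AP-1 matches from -128 to -122 and from -81 to -75, an element found in 6.34% of promoters. In Grb14 the core occurred once, from -243 to -239 on the opposite strand. The Grb14 sequence was 80.0% G and C, above 98.9% of all promoters, and held 4 GC boxes (GGGCGG), which 30.5% of promoters held at least once. Kyat3 held 1 GC box from -44 to -39 and none of the capitalised elements. The nuclear receptor element AGGTCA (14.1% of promoters) was found in Plekhf1 alone of the 4. The full NR4A element AAAGGTCA, which contains it, was found in 0 of the 4, against 1.24% of all promoters. The EGR elements GCGTGGGCG and GCGGGGGCG were found in 0, against 0.478% and 2.45%. The E-box (CACGTG), the TATA box in the form TATAAA and the CArG box were found in 0, against 5.59%, 12.9% and 1.5%. Other forms of the TATA box were not searched, and the Klhl40 sequence holds tatatata close to the start. Over all 14 called genes with a sequence in the table, 9 held the CRE core, 7 the GC box, 5 TATAAA and 2 the full CRE. The AP-1 element, AGGTCA, the E-box and the CArG box were each held by 1. These 14 were called by the comparison that chose the 5 genes, and they include the 4 above and immediate early genes such as Egr1, Junb and Nr4a2. Nothing is therefore read from their counts. The matches describe letters in a fixed window.

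All 11 arrays carried strong signals of both parts of the gland, the steroid-producing cortex and the catecholamine-producing medulla. Th, which catalyses the first step towards catecholamines, had log2 levels of 11.52 to 12.57 in lesions and 11.85 to 12.32 in normal glands, and Star, which carries cholesterol into mitochondria, 11.78 to 12.60 and 12.31 to 12.35. Cdkn1b had a mean of 7.79 ± 0.43 (SD, n = 7) in lesions and 7.82 ± 0.16 (SD, n = 4) in normal glands. Array medians lay between 4.91 and 5.01. Lesion replicate 1 stood apart, with a mean correlation of 0.970 with the other arrays across probe sets, where the other 10 arrays had 0.978 to 0.986. Cortical markers averaged 9.84 in it, the lowest of lesions that reached 11.56, and 10.68 to 11.17 in normal glands. Chromaffin markers averaged 10.98 in it, the highest of lesions that began at 9.59, and 10.05 to 10.40 in normal glands. Between older and younger lesions the median marker differences were -0.66 (cortical) and 0.44 (chromaffin). Their part in the levels of the 5 genes was not tested. In whole tissue, fewer cells of a type and less RNA per cell cannot be told apart. The number of arrays limits the precision.

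For each of the 5 genes every lesion lay below every normal gland. This was so for 203 of 29214 probe sets (0.695%), while 19 (0.0650%) were called lower by limma at an adjusted p under 0.05. The comparison chose the genes, so these shares are background from which nothing is read. The adjusted p-values by which they were chosen were 0.00866 for Klhl40 and for Plekhf1, 0.0150 for Hcar2, 0.0251 for Grb14 and 0.0401 for Kyat3. Kyat3 was the called probe set nearest the threshold, and the first ones outside it were Ppp1r15a (adjusted p = 0.0527) and Klf12 (adjusted p = 0.0625).

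**Figure D1:**
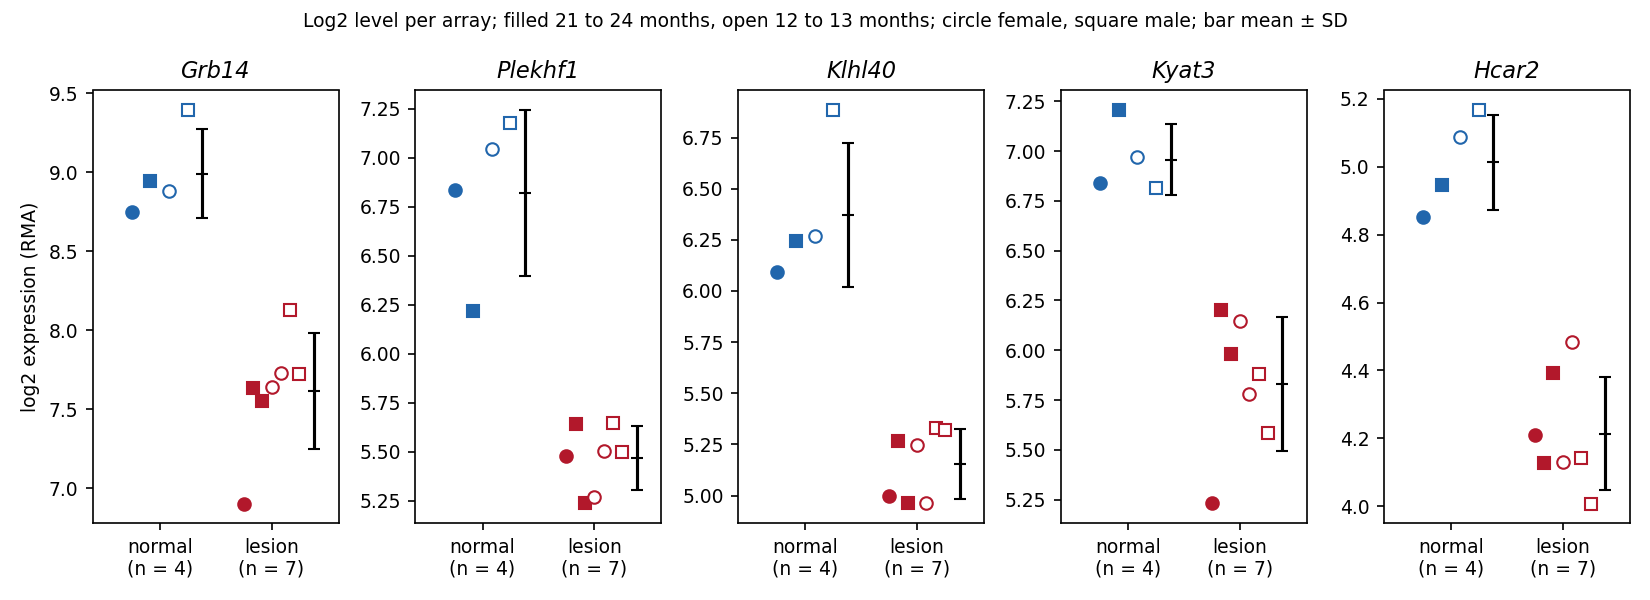
Log2 expression of the 5 genes on each array (vertical axis, a separate scale per gene), for 4 normal glands (blue) and 7 lesions (red), with filled symbols for 21 to 24 months, open symbols for 12 to 13 months, circles for females, squares for males, and the mean ± SD as a black bar. In every panel the red points lie below the blue ones, with a gap from 0.37 for Hcar2 to 0.76 for Klhl40.

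Grb14 (probe set 10845751) had log2 levels of 8.75, 8.95, 8.88 and 9.39 in normal replicates 1 to 4. In lesions the lowest level was 6.90, the median 7.64 and the highest 8.13. The lowest lesion was replicate 1, a female of 23 months, and the highest was replicate 6, a male of 13 months. The means were 8.99 ± 0.28 (SD, n = 4) and 7.62 ± 0.36 (SD, n = 7), so lesions minus normal glands gave -1.38 (95% CI -1.80 to -0.95), or 2.60-fold lower in lesions. The gap between the highest lesion and the lowest normal gland was 0.62. Without lesion replicate 1 the difference was -1.26, and within females, males, older and younger animals it was -1.39, -1.41, -1.48 and -1.33.

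Plekhf1 (probe set 10721188) had log2 levels of 6.84, 6.22, 7.05 and 7.18 in normal replicates 1 to 4. The lesions were tightly grouped, with a lowest level of 5.24, a median of 5.50 and a highest of 5.65. The normal glands were spread over 0.96, more than the 0.41 covered by the lesions, and the lowest of them was replicate 2, a male of 24 months. The means were 6.82 ± 0.42 (SD, n = 4) and 5.47 ± 0.16 (SD, n = 7), so lesions minus normal glands gave -1.35 (95% CI -1.70 to -1.0), or 2.55-fold lower in lesions. Within females, males, older and younger animals the difference was -1.52, -1.19, -1.08 and -1.63.

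Klhl40 (probe set 10921052) had log2 levels of 6.09, 6.24, 6.27 and 6.88 in normal replicates 1 to 4. In lesions the lowest level was 4.96, the median 5.25 and the highest 5.33. Among the 5 genes it had the widest gap between the groups, 0.76, and the narrowest range in lesions, 0.37. The highest normal gland was replicate 4, and the other 3 lay between 6.09 and 6.27. The means were 6.37 ± 0.35 (SD, n = 4) and 5.16 ± 0.17 (SD, n = 7), so lesions minus normal glands gave -1.22 (95% CI -1.53 to -0.90), or 2.32-fold lower in lesions. Without normal replicate 4 the difference was -1.04. Within females, males, older and younger animals it was -1.11, -1.34, -1.09 and -1.36.

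Kyat3 (probe set 10940453) had log2 levels of 6.84, 7.21, 6.97 and 6.81 in normal replicates 1 to 4. In lesions the lowest level was 5.23, in replicate 1, the median 5.88 and the highest 6.20. Here the lesions were more spread than the normal glands, over 0.97 against 0.39. The means were 6.96 ± 0.18 (SD, n = 4) and 5.83 ± 0.34 (SD, n = 7), so lesions minus normal glands gave -1.13 (95% CI -1.50 to -0.76), or 2.18-fold lower in lesions. Without lesion replicate 1 the difference was -1.03. Within females, males, older and younger animals it was -1.18, -1.10, -1.22 and -1.04.

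Hcar2 (probe set 10758351) had log2 levels of 4.85, 4.95, 5.09 and 5.17 in normal replicates 1 to 4. In lesions the lowest level was 4.01, the median 4.14 and the highest 4.48. All 7 lesions and 2 of the 4 normal glands lay below the median of their own array, and signal over background was not analysed here, so how far the difference is compressed is unknown. The means were 5.01 ± 0.14 (SD, n = 4) and 4.21 ± 0.17 (SD, n = 7), so lesions minus normal glands gave -0.80 (95% CI -1.02 to -0.57), or 1.74-fold lower in lesions. Within females, males, older and younger animals it was -0.70, -0.89, -0.66 and -0.94. Of the other 4 genes, 2 lesions lay below their array's median for Klhl40, and no array did for Grb14, Plekhf1 or Kyat3.

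The calls that chose these genes depended on single arrays, while the size of each difference changed little. When each of the 11 arrays was left out in turn, Plekhf1 and Klhl40 were called in 10 of 11 fits, Hcar2 in 9, Kyat3 in 3 and Grb14 in 2. Without normal replicate 3 none of the 5 was called by limma (adjusted p = 0.0692 for Plekhf1, 0.0633 for Klhl40, 0.0836 for Hcar2, 0.105 for Grb14 and 0.203 for Kyat3), and the call of Hcar2 was also lost without normal replicate 4 (adjusted p = 0.0516). Grb14 kept its call without lesion replicate 1 or lesion replicate 6, and Kyat3 without lesion replicates 1, 2 or 4. The differences themselves ran from -1.46 to -1.24 for Grb14, from -1.55 to -1.23 for Plekhf1, from -1.31 to -1.04 for Klhl40, from -1.19 to -1.03 for Kyat3 and from -0.85 to -0.75 for Hcar2 over these fits.

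**Figure D2:**
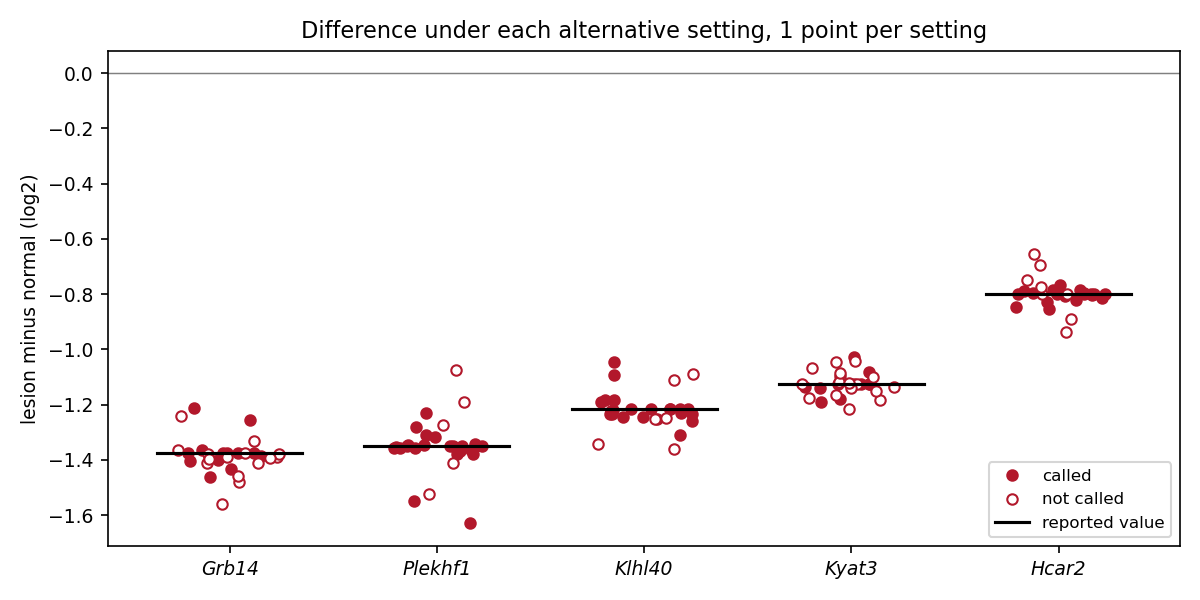
Difference between lesions and normal glands (log2, vertical axis) for each gene under each alternative setting, 1 point per setting, filled where limma called the gene and open where it did not, with the reported value as a black line. Every point lies below 0, from -1.63 (Plekhf1) to -0.66 (Hcar2), and the open points are most frequent for Grb14 and Kyat3. Since every lesion lay below every normal gland, the side of 0 was fixed for any subset of the arrays.

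Immediate early genes are switched on rapidly by a stimulus. Of 20 measured, 6 were called lower in lesions and 0 higher, against 18 and 0 of all 14506 named genes. This list was drawn up with the result known. Only 2 of the called ones are set beside the 5 genes here, and Fos was added after its values were seen. Egr1, a zinc-finger transcription factor, had log2 levels of 10.29, 10.70, 10.03 and 9.68 in normal replicates 1 to 4 and 7.07 to 7.56 in lesions. Fos, a subunit of the AP-1 factor, had 6.90, 7.94, 7.44 and 5.80 in the same normal glands and 4.71 to 5.18 in lesions. Within the normal glands the order of these levels was not that of Grb14, Plekhf1, Klhl40 or Hcar2. Replicate 4 was the lowest of the 4 for Egr1 and for Fos, but the highest for Grb14, Plekhf1, Klhl40 and Hcar2, and replicate 2 was the highest for Egr1 and Fos but the lowest for Plekhf1. Kyat3 followed the order of Fos, with replicate 2 the highest, then replicates 3, 1 and 4. The part of these genes in the result was not tested.

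**Figure D3:**
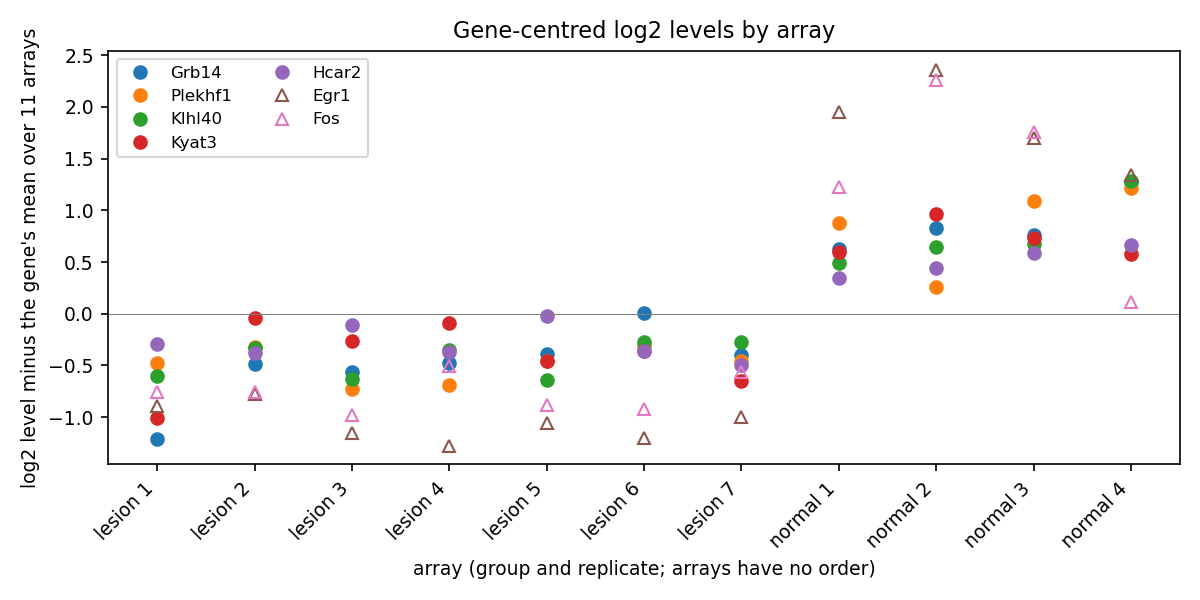
Log2 level minus the gene's own mean over 11 arrays (vertical axis) on each array (horizontal axis, group and replicate, in no order) for the 5 genes (filled circles) and for Egr1 and Fos (open triangles). The 4 normal glands lie above 0 for every gene, and normal replicate 4 is low for Fos and high for Grb14, Plekhf1, Klhl40 and Hcar2.

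Age within a group and sex were measures that the choice did not use, although the choice favoured genes with little spread within groups. None of the 5 genes was called between the 3 older and the 4 younger lesions by limma, and 0 of 5 had an unadjusted p under 0.05. Over all probe sets 3 were called (0.0103%) and 2805 (9.60%) had an unadjusted p under 0.05. The largest of the 5 differences was that of Grb14, -0.44 in older minus younger lesions (95% CI -0.90 to 0.01, adjusted p = 0.531). Its 3 older lesions had 6.90 to 7.634 and its 4 younger ones 7.64 to 8.13, so the 2 ranges almost touched. How many probe sets separate the lesions by age was not counted, and nothing is read from it. Without lesion replicate 1 the difference was -0.21. The other 4 differences were -0.14 for Klhl40 (95% CI -0.50 to 0.22), -0.04 for Kyat3 (95% CI -0.54 to 0.45), -0.03 for Plekhf1 (95% CI -0.39 to 0.34) and 0.05 for Hcar2 (95% CI -0.23 to 0.33).

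In normal glands the age comparison rested on 2 arrays per age. By limma 0 of the 5 genes and 0% of all probe sets were called, and 1 of the 5 genes and 839 probe sets (2.87%) had an unadjusted p under 0.05. That gene was Plekhf1, with 6.84 and 6.22 at 24 months and 7.05 and 7.18 at 12 months (older minus younger -0.58, 95% CI -1.06 to -0.10, adjusted p = 1.00). Klhl40 differed by -0.41 (95% CI -0.88 to 0.06), Grb14 by -0.29 (95% CI -0.89 to 0.30), Hcar2 by -0.23 (95% CI -0.59 to 0.14) and Kyat3 by 0.13 (95% CI -0.52 to 0.78). The circadian clock gene Bmal1 also divided these glands, with 6.13 and 5.68 at 24 months and 7.61 and 7.25 at 12 months, so age and the level of this clock gene cannot be told apart there. An interaction term, which asks if age acted differently in lesions and in normal glands, called 0 of the 5 genes and 0% of all probe sets by limma, with 0 of the 5 and 826 probe sets (2.83%) at an unadjusted p under 0.05. The widest was that of Plekhf1, 0.55 (95% CI -0.05 to 1.15).

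Ordered by level, Grb14, Plekhf1 and Klhl40 were highest in younger normal glands, then in older normal glands, younger lesions and older lesions. For Grb14 the 4 means were 9.14, 8.85, 7.80 and 7.36, for Plekhf1 7.11, 6.53, 5.48 and 5.45, and for Klhl40 6.58, 6.17, 5.21 and 5.08. The order of the Plekhf1 lesions turned without lesion replicate 3 or 6. Kyat3 was highest in older normal glands (7.02), then in younger normal glands (6.89), younger lesions (5.85) and older lesions (5.80). Its order turned in lesions without lesion replicate 1 or 4, and in normal glands without normal replicate 2. Hcar2 stood at 5.13 in younger and 4.90 in older normal glands, and at 4.24 in older and 4.19 in younger lesions. The order of the Hcar2 lesions turned without lesion replicate 3 or 7. The steps between ages within a group did not pass the test for any of these genes, as given above.

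Males and females were compared over both groups. By limma, with group in the model, 0 of the 5 genes and 0% of all probe sets were called between males and females, and 0 of the 5 genes and 1154 probe sets (3.95%) had an unadjusted p under 0.05. Grb14 was higher in males by 0.34 (95% CI -0.02 to 0.71, adjusted p = 0.999) and Klhl40 by 0.24 (95% CI -0.05 to 0.52, adjusted p = 0.999), neither of which passed. Kyat3 differed by 0.16 (95% CI -0.20 to 0.53), Plekhf1 by -0.03 (95% CI -0.40 to 0.33) and Hcar2 by -0.04 (95% CI -0.26 to 0.19).

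**Figure D4:**
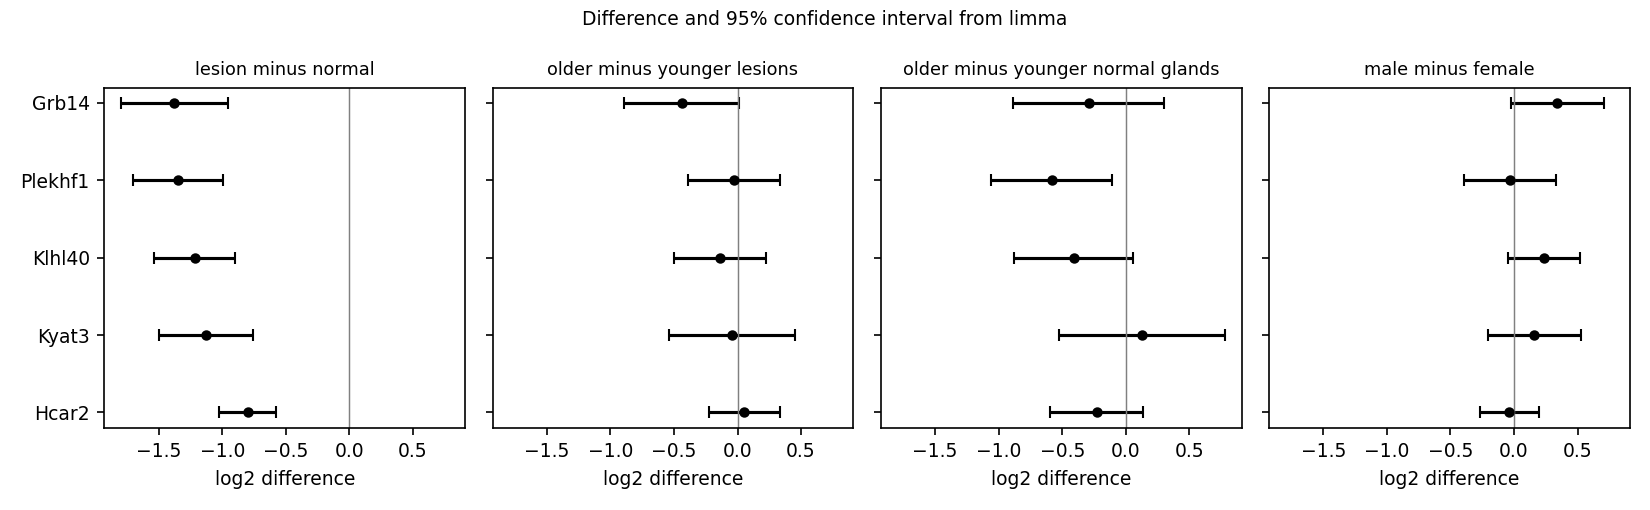
Log2 difference (horizontal axis) with its 95% confidence interval from limma for the 5 genes in 4 comparisons, a panel each. The intervals of lesion minus normal, the comparison that chose the genes, lie below 0, and of the 15 others only that of Plekhf1 between older and younger normal glands (-1.06 to -0.10) does not cross 0.

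Whether the 5 genes varied together was examined within the 7 lesions, since over all arrays the group difference would dominate. Of the 10 pairs, 1 had an adjusted p under 0.05. Klhl40 and Hcar2 ran in opposite directions (Pearson r = -0.87, two-sided exact permutation p = 0.00417, adjusted p = 0.0417 over 10 pairs, n = 7). By rank the relation did not pass (Spearman rho = -0.79, exact permutation p = 0.0480, adjusted p = 0.480). Without lesion replicates 3 and 5, the farthest from the median of Klhl40, r was -0.72. The call was also lost without any lesion replicate other than 6, after renewed quantile normalization and after median centring, with r from -0.96 to -0.82 over these settings. The 2 genes covered 0.37 and 0.48 on the log2 scale in lesions. Groups of 3 older and 4 younger lesions are too few for values within an age class. The other 9 pairs had r from -0.31 to 0.58 and adjusted p-values from 0.630 to 0.979, and Grb14 with Kyat3 (r = 0.58) turned to -0.64 without lesion replicates 1 and 6.

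Likeness over all 11 arrays was measured as the root mean square difference between gene-centred log2 levels, a measure that includes the group difference. The genes were chosen by that difference, so closeness among them follows at least in part from the choice, and nothing is read from it. Within lesions alone Klhl40 had Pearson r = 0.56 with Grb14 (exact permutation, adjusted p = 0.630, n = 7). With Plekhf1 it had r = 0.43 (exact permutation, adjusted p = 0.787, n = 7). Grb14 and Klhl40 were each other's nearest gene of all 14506 (0.24). Plekhf1 was nearest to Klhl40 (0.25), then to Id3, which blocks DNA binding by helix-loop-helix factors (0.27). After these came the stress-induced factor Atf3 (0.30), which is also on the list of immediate early genes. Next to Grb14 came Fzd4, a receptor for WNT ligands (0.33), and Kyat3 (0.33). Klhl40 was followed by Plekhf1 (0.25) and the cholesterol exporter Abca1 (0.28). Kyat3 was most like Fzd4 (0.28), the death ligand gene Tnfsf10 (0.29) and Hebp2 (0.29). Hcar2 was most like Zrsr2-ps1 (0.19), the transcription factor gene Klf12 (0.23) and Metrnl (0.23). Of these, Zrsr2-ps1, Id3 and Atf3 were themselves called lower in lesions. Fzd4, Abca1, Tnfsf10, Hebp2, Klf12 and Metrnl were not called between lesions and normal glands, although for each of them all lesions lay below all normal glands.

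The nearest protein-coding genes with a probe set on either side of each of the 5 in RefSeq (GRCr8) were measured as well. By limma 0 of these 10 neighbours were called, against 0.0650% of all probe sets. At an unadjusted p under 0.05 there was 1, Gbp2, against 8.36% of all named genes. These counts are near the shares over all, and nothing is read from them. Cobll1 and Fign, which flank Grb14 directly, differed by 0.24 (95% CI -0.41 to 0.88) and -0.57 (95% CI -1.29 to 0.16). Pop4 beside Plekhf1 differed by -0.34 (95% CI -0.69 to 0.01) and Ccne1, with 1 gene between, by -0.00 (95% CI -0.76 to 0.75). Hhatl, directly beside Klhl40, differed by -0.10 (95% CI -0.31 to 0.11). Gtf2b, directly beside Kyat3, differed by -0.09 (95% CI -0.39 to 0.20) and Gbp2, on its other side with 3 genes between, by -0.41 (95% CI -0.67 to -0.15, adjusted p = 0.318). Kntc1, directly beside Hcar2, differed by 0.19 (95% CI -0.14 to 0.52). The remaining 2, Vipr1 beyond Klhl40 (4 genes between) and Ccdc62 beyond Hcar2 (2 genes between), differed by 0.01 and 0.04.

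The partners of each protein were described from lists of pathway genes. Over all 14506 named genes the median difference was -0.00, with 18 genes called lower, 0 called higher and 7392 below 0, and 1213 (8.36%) had an unadjusted p under 0.05. In each of the 5 partner lists 0 genes were called by limma in either direction.

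Of 23 listed genes of insulin receptor signalling 21 were measured, with a median difference of -0.02, 12 below 0 and 3 with an unadjusted p under 0.05. The closest relatives of Grb14 in the list were not called: Grb10, which also inhibits the insulin receptor, differed by -0.51 (95% CI -1.21 to 0.19) and Grb7 by 0.11 (95% CI -0.16 to 0.38). The Grb10 value rested on lesion replicate 1 (7.47, where the other lesions had 9.09 to 9.49) and was -0.25 without it. Pik3r1, the regulatory subunit of phosphoinositide 3-kinase, had 8.54, 8.88, 8.71 and 8.67 in normal glands and 7.35 to 8.48 in lesions. All lesions lay below all normal glands, but the difference of -0.80 (95% CI -1.22 to -0.37, adjusted p = 0.258) did not pass. The receptor substrate Irs1, with 7.13 to 7.90 in normal glands and 6.54 to 7.11 in lesions, also showed no overlap and did not pass (-0.56, 95% CI -0.89 to -0.23, adjusted p = 0.266). The receptor gene Insr itself differed by -0.16.

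Of 23 listed genes of phosphoinositides, endosomes and lysosomes 21 were measured, with a median of -0.03, 12 below 0 and 0 with an unadjusted p under 0.05. Plekhf2, the closest relative of Plekhf1, averaged 7.43 ± 0.25 (SD, n = 7) among lesions against 7.45 ± 0.12 (SD, n = 4) among normal glands and differed by -0.03 (95% CI -0.31 to 0.26). The largest differences were those of the phosphoinositide kinases Pikfyve (-0.37, 95% CI -0.82 to 0.07) and Pik3c3 (-0.23, 95% CI -0.58 to 0.12) and of the FYVE-domain gene Zfyve9 (0.24, 95% CI -0.13 to 0.60).

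Of 17 listed kelch-like genes and thin filament partners 11 were measured, with a median of -0.03, 8 below 0 and 0 with an unadjusted p under 0.05. Neb and Lmod3 were among the listed genes not measured, so nothing is known here of these partners. Klhl41, a relative of Klhl40 from skeletal muscle, differed by -0.02 (95% CI -0.27 to 0.22) and its level was low in both groups (3.56 ± 0.21 and 3.58 ± 0.09). Cul3, the scaffold of the ubiquitin ligases that kelch-like proteins join, differed by -0.24 (95% CI -0.53 to 0.04), Keap1 by -0.20 (95% CI -0.51 to 0.11) and the muscle gene Nrap by -0.15 (95% CI -0.30 to 0.00). Skeletal muscle is the tissue in which Klhl40 is best known. Of its 14 markers measured of 16 listed, 0 were called, 0 had an unadjusted p under 0.05 and 9 were below 0 (median -0.02), with differences from -0.22 (Tnnt3) to 0.14 (Myh1). Their mean log2 level was 4.00 to 4.33 in lesions and 4.12 to 4.22 in normal glands, below the array medians.

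Of 18 listed genes of the kynurenine pathway 16 were measured, with a median of -0.03, 10 below 0 and 2 with an unadjusted p under 0.05. Kyat1, the other enzyme named for this reaction, averaged 6.86 ± 0.24 (SD, n = 7) among lesions against 6.88 ± 0.23 (SD, n = 4) among normal glands and differed by -0.02 (95% CI -0.33 to 0.29). Aadat, a further aminotransferase that makes kynurenic acid, lay on the opposite side from Kyat3. Its log2 levels were 7.81 and 7.78 in the 2 lesions of females of 13 months (replicates 4 and 5), 4.41 to 6.00 in the other 5 lesions, and 3.83, 4.92, 5.04 and 3.48 in normal replicates 1 to 4. The groups overlapped and the difference of 1.46 did not pass (95% CI -0.07 to 3.00, adjusted p = 0.674). The amino acid transporters Slc7a5 and Slc7a8 differed by -0.29 (95% CI -0.67 to 0.08) and -0.25 (95% CI -0.48 to -0.02, adjusted p = 0.620).

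Of 27 listed genes of hydroxycarboxylic acid receptors and lipolysis 25 were measured, with a median of 0.00, 12 below 0 and 1 with an unadjusted p under 0.05. The largest differences were those of the hormone-sensitive lipase gene Lipe (0.57, 95% CI -0.28 to 1.42), the adenylyl cyclase gene Adcy5 (-0.55, 95% CI -1.07 to -0.02, adjusted p = 0.629) and Slc16a1, a carrier of lactate and ketone bodies (0.47, 95% CI -0.15 to 1.09). Lipe differed by 0.85 without lesion replicate 1 and was still not called. Hcar2 is also known from fat cells, macrophages and neutrophils. Of the 10 adipocyte markers 0 were called and 9 lay above 0 (median 0.25), with a mean level of 5.37 to 6.74 in lesions and 5.53 to 6.02 in normal glands. Of the 9 macrophage markers 0 were called (median -0.02, mean level 6.28 to 6.86 and 6.41 to 6.94), and of the 9 neutrophil markers 0 were called and all lay above 0 (median 0.10, mean level 4.00 to 4.73 and 3.90 to 4.12). The mean levels of all 3 sets overlapped between the groups. The part of these cells in the level of Hcar2 was not tested.

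**Figure D5:**
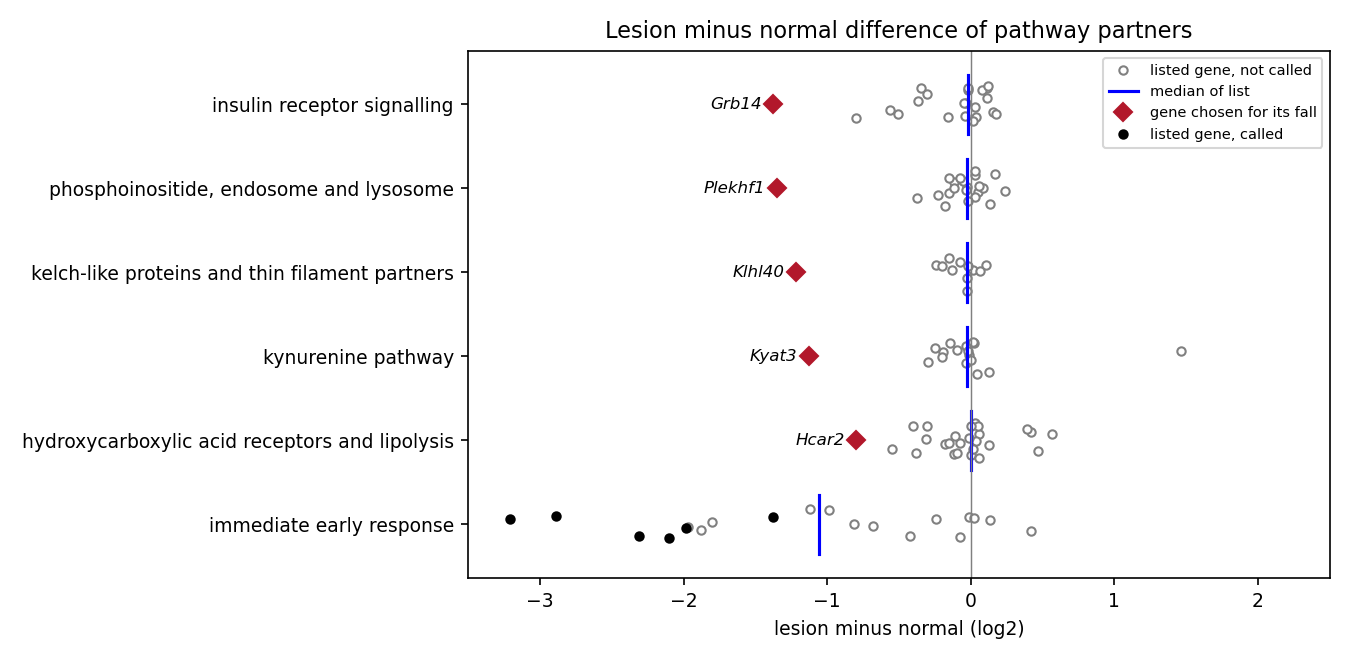
Difference between lesions and normal glands (log2, horizontal axis) for every measured gene of the 5 partner lists and of the immediate early list (rows), with the list's median in blue, called genes in black, and the gene chosen for its fall as a red diamond. The 5 partner medians lie between -0.03 and 0.00, where the median of all named genes was -0.003, and the immediate early median is -1.05. The distance of the diamonds from the partner medians follows from the choice, and the immediate early list was drawn up with the result known.

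Of 22 genes listed for the immediate early response 20 were measured, with a median of -1.05, 17 below 0 and 3 above. The largest differences were those of the nuclear receptor gene Nr4a2 (-3.21), Egr1 (-2.89) and Klf4 (-2.31), all called, while Ier3 differed by 0.42 and was not. The list was drawn up with the result known, so it gives no independent support. Markers of the gland's own cells and of other cells were not called by limma in any list, with 1 marker at an unadjusted p under 0.05 in each of the cortical, neutrophil and fibroblast lists. The cortical one was Scarb1, a receptor that takes up cholesterol from lipoproteins, with 10.37 to 12.22 in lesions and 9.84 to 10.89 in normal glands (difference 1.33, 95% CI 0.64 to 2.03, adjusted p = 0.258). Without lesion replicate 1 Scarb1 was called higher in lesions (1.54, adjusted p = 0.0207), and no other marker of these lists was. The medians were 0.08 for 9 cortical markers (0.28 without lesion replicate 1), -0.06 for 9 chromaffin markers, -0.12 for 8 smooth muscle and pericyte markers, 0.02 for 7 endothelial markers and -0.04 for 8 fibroblast markers. They were -0.08 for 6 Schwann and sustentacular markers, 0.11 for 8 lymphocyte markers, 0.03 for 6 blood cell markers and 0.10 for 7 liver and kidney markers. Fibroblast markers as a whole had a mean level of 6.41 to 6.58 in lesions and 6.61 to 6.63 in normal glands, without overlap and by a small margin, led by Dpt (-0.62, 95% CI -1.06 to -0.17, adjusted p = 0.443). Their part in the result was not tested.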

How the data were processed

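Total RNA of 7 adrenal lesions and 4 normal adrenal glands of rats was amplified, biotin-labelled and hybridised, as the labels' protocols describe. The deposited log2 levels came from RMA, and the submitters' processing notes name Affymetrix Expression Console 1.3.0.187. Genome build and summary options: not given in the sources used here. Levels were analysed as deposited, and scanner intensities were not used here. Gene names came from the platform annotation. Of 29214 probe sets 15310 carried 1 symbol, 323 several and 13581 none, and for a gene with several the one with the highest mean stood for it. By gene ID 15279 matched RefSeq (GRCr8).

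All tests of differences were two-sided, by lmFit and eBayes of limma 3.58.1 in R 4.3.3. P-values were adjusted by Benjamini-Hochberg across the 29214 probe sets, and an adjusted p under 0.05 was a call. Lesions against normal glands were fitted by group alone, age by group and age class, and sex with group in the model. The procedure was tested on simulated data. The members, lists and rules were chosen with earlier results of these data known. Besides the 5 genes, the text could name per list up to 3 measured genes with the largest difference, done in full for the 5 partner lists and the immediate early list and in part for marker lists, the relatives Grb7, Grb10, Plekhf2, Klhl41, Kyat1 and Aadat, the 3 genes most like each member and its neighbours. Egr1, Bmal1 and Cdkn1b were array checks. Fos, Th, Star, Cyp11b1, Insr, Ier3 and Ppp1r15a were added after their values were seen. Hcar1, which no single-symbol probe set names, was not analysed here. Replicates are labelled biological and were taken to be different animals. Figures were drawn with matplotlib 3.10.9.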

Additional observations from a re-analysis of the deposited data

Results flagged for a closer look

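Among 58 groups of arrays examined (the 5 genes, the array checks, the relatives and the neighbours, each in lesions and in normal glands), 11 held an array whose gap to the nearest other array was large for the range of its group, where chance alone marks about 1 group in 20. None of the 11 concerned Grb14, Plekhf1, Klhl40, Kyat3 or Hcar2. Lesion replicate 1 accounted for 5 of them, with 8.69 for Cdkn1b (nearest other lesion 7.89), 11.78 for Star (12.33), 9.72 for Cyp11b1 (11.05), 7.47 for Grb10 (9.09) and 8.09 for Cobll1 (9.32). Lesion replicate 5 was low for Plekhf2 at 6.90 (7.40) and for Pop4 at 6.87 (7.30), and lesion replicate 6 was low for Vipr1 at 3.88 (4.02). Normal replicate 4 was low for Cdkn1b at 7.59 (7.87) and high for Kntc1 at 3.97 (3.86). Normal replicate 2 was high for Star at 12.35 (12.32), in a group that covered a small range.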

How the results depend on the processing

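The number of genes called between lesions and normal glands depended on the setting. Every difference of the 5 genes stayed below 0, from which nothing is read. Every lesion lay below every normal gland, so any subset of the arrays had to give a difference below 0. Against 5 of the 5 genes and 19 probe sets as reported, an adjusted p under 0.01 left 2 and 9, animals of 12 to 13 months alone 1 and 5, and animals of 21 to 24 months, females or males alone 0 and 0. Probe sets called were 30 among the brighter probe sets (above the median of mean levels), 31 with array weights and 29 with age and sex as covariates. Kyat3 was not called with age and sex (adjusted p = 0.0590), with age alone (0.0537) or after quantile normalization (0.0658), which left 4 of the 5 genes, and Hcar2 was not among the brighter probe sets. Leaving out 1 array gave 0 to 5 of the genes and 5 to 28 probe sets, the lowest without normal replicate 3. Pairs of genes correlated within lesions, 1 as reported, were 0 by Spearman, after quantile normalization and after median centring, and 0 to 1 when a lesion was left out. The cause was not tested, except that the divided sets hold fewer arrays. Of 483 other values recomputed, 400 kept their side of the threshold and, but for 1 list median, their direction, 59 were no longer called and 0 were newly called. The remaining 24, all of age or sex and called in neither setting, reversed. With 1 array left out, older minus younger lesions ran from -0.24 to 0.24 for Kyat3 (above 0 without lesion replicate 1 or 4), -0.12 to 0.081 for Plekhf1 (above 0 without 3 or 6) and -0.022 to 0.15 for Hcar2 (below 0 without 3 or 7). Older minus younger normal glands ran from -0.054 to 0.31 for Kyat3 (below 0 without normal replicate 2). The interaction ran from -0.37 to 0.11 for Kyat3 (above 0 without lesion replicate 1 or normal replicate 2), -0.40 to 0.11 for Grb14 (above 0 without lesion replicate 1 or normal replicate 3) and -0.036 to 0.58 for Klhl40 (below 0 without normal replicate 4). Male minus female ran from -0.14 to 0.13 for Plekhf1 (above 0 without lesion replicate 3 or normal replicate 2 or 3) and -0.085 to 0.036 for Hcar2 (above 0 without lesion replicate 5 or 7). Array weights turned the age difference in lesions to 0.19 for Kyat3 and 0.027 for Plekhf1 and the interaction to 0.063 for Kyat3, and lesions alone turned male minus female to 0.089 for Plekhf1. The list median of hydroxycarboxylic acid receptors and lipolysis, 0.00, was -0.06 without lesion replicate 1. No other probe set of the 5 genes could be tried, since each has 1.

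With the replicate number as a block (8 arrays), 0 of the 5 genes and 3 probe sets were called between lesions and normal glands by limma, with differences of -1.56 for Grb14, -1.41 for Plekhf1, -1.25 for Klhl40, -1.07 for Kyat3 and -0.80 for Hcar2. Between males and females the block called 0 of the 5 and turned Plekhf1 to 0.0495, Kyat3 to -0.16 and Hcar2 to 0.17. Deviations of arrays with the same number correlated at 0.18, 0.15, 0.07 and 0.21 across probe sets, and for 4 of 4 numbers the own number was best. Lesions and normal glands numbered 1 and 2 also shared age class and sex, those numbered 4 age class only and those numbered 3 neither. The part of age and sex in these correlations was not tested. The labels state no pairing, so the numbers were not taken as pairs.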
